A study of Mus musculus with 4 samples.

Results

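The suppressor of cytokine signalling (SOCS) family comprises Cish and Socs1 to Socs7, and its 8 genes were represented by 10 of the 25697 probes on the bead arrays. The probes of these genes were taken by gene symbol in the platform annotation, with no use of measured values. The family itself was chosen with earlier results of these data known. The cells were splenic regulatory T cells (FoxP3-GFP+) of C57Bl/6 mice aged 8 to 12 weeks, sorted by their reporter and activated overnight through CD3. The isotype cultures also received rat IgG and the OX86 cultures an agonist antibody to the receptor OX40, so every culture had been activated. Each group had 2 arrays, called isotype 1, isotype 2, OX86 1 and OX86 2 here. Nothing in the labels ties the arrays to separate animals or cultures, and p-values therefore cover only array-to-array spread, possibly technical.

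Cish and Socs1 to Socs3 encode feedback inhibitors: cytokines induce these genes through STAT transcription factors, and the proteins then damp the receptor that sent the signal. Each SOCS protein carries an SH2 domain, which binds phosphorylated tyrosines, and a C-terminal SOCS box. The SOCS box recruits elongin B, elongin C and cullin 5 to form a ubiquitin ligase. Regulatory T cells depend on interleukin-2, whose receptor signals through STAT5, and Cish is a classical STAT5 target.

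Promoter sequence is shown for the members whose RefSeq promoter held a match to a pattern of the kind bound by STAT or interferon regulatory factors. Of the 8 members, 4 had an entry in the RefSeq table (GRCm38.p6), which gives 250 bases before and 50 bases after the annotated start: Cish, Socs1, Socs3 and Socs4. Both strands were searched for TTCNNNGAA, the palindromic element bound by STAT factors, and for GAAA-NN-GAAA, a pair of GAAA words set apart by any 2 bases and an element bound by interferon regulatory factors. Matches are in capitals, and each sequence runs 5′ to 3′ along the strand of its gene.
Cish, chr9:107296639-107296678, plus strand: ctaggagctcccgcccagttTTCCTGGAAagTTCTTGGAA
Socs3, chr11:117969492-117969540, minus strand: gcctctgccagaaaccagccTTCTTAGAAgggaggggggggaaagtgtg
Socs1, chr16:10785584-10785639, minus strand: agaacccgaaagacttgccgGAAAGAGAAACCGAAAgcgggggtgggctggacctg
In Cish the 2 STAT-type matches began at bases 1 and 12 of the annotated transcript. In Socs3 the single match began 154 bases before the start. In Socs1 the 2 interferon-type matches began 83 and 77 bases before the start and overlapped. Socs4 held neither. Of 32851 promoters in the table, 8.3% held TTCNNNGAA at least once and 0.457% at least 2 times, while 3.44% held GAAA-NN-GAAA at least once and 0.225% at least 2 times. A match describes the letters in the window and was not tested as a site.

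The cells carried the transcripts their label implies. All 8 markers of T cells and regulatory T cells examined were detected on all 4 arrays, among them Foxp3, Cd4 and Ctla4. Of the other markers represented, 3 of 6 for CD8 T and NK cells, 2 of 5 for B cells, 1 of 6 for myeloid and dendritic cells and 1 of 4 for erythroid cells and platelets were detected on all 4. Normalized log2 means with isotype and OX86 were 9.68 and 9.58 for Cd8b1, 9.02 and 9.58 for Cd74, and 9.98 and 9.62 for Hba-a1. Log2 changes (OX86 minus isotype) of B-cell markers were 0.81 for Ms4a1, detected on 3 arrays, -0.26 for Cd79a and -0.16 for Cd79b. No marker passed at an adjusted p under 0.05, and a difference in cell composition was not tested. In such bulk RNA, fewer cells of a type and less RNA per cell cannot be told apart. Isotype 2 was the dimmest array, with a 90th percentile of deposited signal of 819 against 1211 to 1569 on the others. It also correlated least with them, at 0.968 to 0.972 across tested probes against 0.981 to 0.985 for the pairs without it. These correlations run across genes, which are no independent replicates.

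Activated regulatory T cells gave detectable signal for most of the SOCS family, and no member passed the test of OX86 against isotype. A probe counted as detected where its deposited detection p, which compares it with negative control beads, was under 0.05. Cish, Socs2, Socs3, Socs4, Socs5 and 1 of the 2 Socs6 probes were detected on all 4 arrays. Socs1 was detected on 2 arrays, and the other Socs6 probe and both Socs7 probes on 0. The 7 probes detected on at least 2 arrays, which stand for 7 of the 8 genes, entered the comparison of OX86 with isotype.

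**Figure D1:**
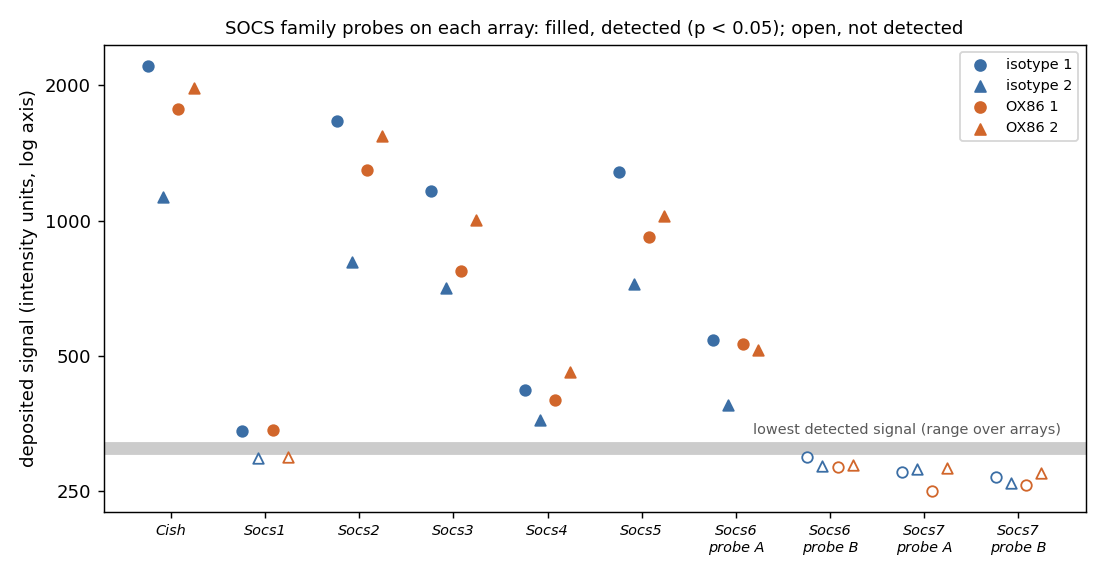
Deposited signal (vertical log axis, intensity units) of the 10 SOCS family probes on each of the 4 arrays, with filled symbols where the probe was detected and open symbols where it was not; the grey band spans the lowest detected signals of the arrays, 302.2 to 320.4. The 6 probes detected on all arrays lie above the band, each lowest on isotype 2; Socs1 straddles it; the second Socs6 probe (probe B) and both Socs7 probes lie below it.

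Of the 7 SOCS family probes, 0 passed in the limma fit over all 13338 tested probes, each with a Benjamini-Hochberg adjusted p of 0.9999, and the share of all tested probes that passed was 0%. An unadjusted p under 0.05 was found for 0 of the 7, against 3.33% of all tested probes. Of the 7 log2 changes (OX86 minus isotype), 4 were above 0 and 3 below, from -0.26 to 0.22. Their median was 0.09, where the median over all tested probes was 0.01, and the median size of change was 0.17 against 0.15. For the 6 probes detected on all 4 arrays, the 95% intervals had half-widths of 0.47 to 0.64 and lay between -0.84 and 0.76, within a 2-fold difference in either direction. The Socs1 interval of -0.95 to 0.80 also lay within a 2-fold difference. It is not taken as a limit, since Socs1 was not detected on 1 array of each group. For the other 6 probes the 2-fold limit holds for this normalization only. Under median scaling the changes of Cish, Socs2, Socs4 and Socs6 were larger, at 0.23, 0.32, 0.27 and 0.34, and no intervals are given there.

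**Figure D2:**
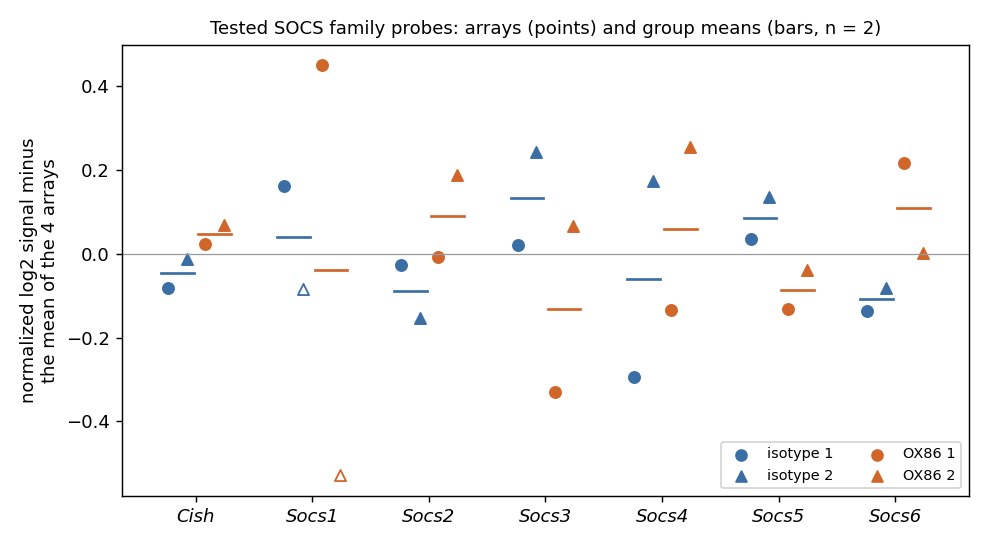
Normalized log2 signal of each tested SOCS family probe minus its mean over the 4 arrays (vertical axis, log2 units), with a point per array, open where not detected, and a bar at each group mean (n = 2). Groups do not overlap for Cish, Socs2, Socs5 and Socs6, and Socs1 has the widest spread, 0.98 from lowest to highest array.

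Both OX86 arrays lay above both isotype arrays for 3 of the 7 probes, as for 13.9% of all tested probes, and below them for 1, as for 13.1%. Together 4 of the 7 did not overlap, against 26.9% of all tested probes. With 7 probes on the same 4 arrays these counts are a description, and the gaps were small.

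Cish encodes CIS, which binds the activated interleukin-2 receptor and also restrains signalling from the T-cell receptor. Its deposited signals were 2210 and 1126 on isotype 1 and 2, and 1768 and 1969 on OX86 1 and 2. On its array the probe ranked between percentiles 93.1 and 93.8 of all probes, which describes the brightness of the probe and gives no order of transcript levels between genes. After background correction and quantile normalization the log2 signals were 10.48 and 10.55 with isotype and 10.59 and 10.64 with OX86. Isotype 2, low in deposited signal here as at the 90th percentile of all probes, was no longer apart, and the normalized values ran within 0.15 of each other. Of all tested probes, 95.1% had a wider range over the 4 arrays. The log2 change was 0.09 (95% interval -0.38 to 0.56), which in this fit allows at most 1.48-fold more or 1.30-fold less with OX86. Leaving out 1 array gave 0.058 (without isotype 1) to 0.13 (without isotype 2). Median scaling of all 4 arrays gave 0.23, for which no interval is given.

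Socs1 inhibits the JAK kinases directly through its kinase inhibitory region and is a principal brake on interferon-gamma signalling. Its probe stood at the limit of detection. The deposited signals were 339.9 on isotype 1 and 342.3 on OX86 1, with detection p of 0.015 and 0.010, and 295.8 on isotype 2 and 297.7 on OX86 2, with detection p of 0.095 and 0.189. Each group thus held 1 array with and 1 array without detection. The normalized log2 signals were 6.07 and 5.83 with isotype and 6.36 and 5.38 with OX86, so that OX86 held both the highest and the lowest value. The log2 change of -0.08 (-0.95 to 0.80) has no stable direction: it was -0.57 without OX86 1, 0.41 without OX86 2, -0.20 without isotype 2 and 0.045 without isotype 1. The probe was not detected on any array at a detection p under 0.01.

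Socs2, best known as the inhibitor of growth hormone signalling and also a STAT5 target, had deposited signals of 1667 and 807.3 with isotype and 1299 and 1540 with OX86. Normalized, it read 10.02 and 9.89 with isotype and 10.03 and 10.23 with OX86. The groups did not overlap, but isotype 1 and OX86 1 nearly met. The log2 change was 0.18 (95% interval -0.32 to 0.67). It was 0.082 without OX86 2, 0.12 without isotype 2 and 0.28 without OX86 1.

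Socs3 blocks signalling through gp130, the receptor chain shared by interleukin-6 and its relatives, and is induced by STAT3. Its deposited signals were 1166 and 707.2 with isotype and 773.0 and 1002 with OX86. The normalized log2 signals were 9.38 and 9.61 with isotype and 9.03 and 9.43 with OX86. OX86 1 was low and isotype 2 high, while isotype 1 and OX86 2 were close together, so the groups overlapped. The log2 change of -0.26 (-0.84 to 0.31) was the largest in size among the 7, and 26.7% of all tested probes had a larger one. Leaving out OX86 1 gave -0.067 and leaving out OX86 2 gave -0.46, while leaving out isotype 1 or isotype 2 gave -0.38 or -0.15. The groups' own gaps between arrays were 0.22 with isotype and 0.40 with OX86.

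Socs3 had the widest range over the arrays among members detected on all 4, 0.57 on the log2 scale. The genes whose centred log2 signals lay nearest to it were Znrf1, which encodes a ubiquitin ligase, Irf1, a transcription factor of interferon responses, and Tmem169. Their root mean square differences from Socs3 were 0.0075, 0.020 and 0.021, among 7656 probes detected on all 4 arrays with a range of at least 0.5 times that of Socs3. Irf1 read 12.80 and 13.03 with isotype and 12.50 and 12.86 with OX86, low on OX86 1 and high on isotype 2 as Socs3 was. The likeness is a description over 4 arrays.

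Socs4 and Socs5 form a pair with long N-terminal regions, and both have been linked to turnover of the epidermal growth factor receptor. Socs4 was dim, with deposited signals of 420.5 and 360.0 with isotype and 399.6 and 459.7 with OX86, yet detected on each array. Its normalized log2 signals were 6.96 and 7.43 with isotype and 7.12 and 7.51 with OX86. In each group the second array was the higher, by 0.47 and 0.39, both more than the log2 change of 0.12 between groups (95% interval -0.52 to 0.76). The change turned to -0.11 without isotype 1 and to -0.074 without OX86 2, and was 0.35 without isotype 2 and 0.31 without OX86 1.

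Socs5 had deposited signals of 1282 and 723.6 with isotype and 920.0 and 1027 with OX86. Its normalized log2 signals of 9.56 and 9.66 with isotype lay above those of 9.39 and 9.48 with OX86. The arrays of a group were 0.10 and 0.09 apart, and the log2 change was -0.17 (95% interval -0.65 to 0.30). Leaving out any 1 array gave -0.22 to -0.12. Socs5 was the only member whose groups did not overlap with OX86 the lower.

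Socs6 and Socs7 form the remaining pair and have been linked to insulin receptor signalling. The bright Socs6 probe had deposited signals of 543.0 and 389.0 with isotype and 530.5 and 514.3 with OX86. Normalized, it read 7.74 and 7.79 with isotype and 8.09 and 7.87 with OX86. The groups did not overlap, and isotype 2 and OX86 2 were the nearest across them. The log2 change was 0.22 (95% interval -0.28 to 0.71) 0.11 without OX86 1 and 0.33 without OX86 2. The second Socs6 probe had signals of 282.4 to 297.9 and detection p of 0.167 to 0.353, so the bright probe alone carries the value.

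Socs7 was not detected by either probe. The signals were 250.9 to 281.7 at the first probe and 257.5 to 275.2 at the second, with detection p of 0.253 to 0.852 and 0.569 to 0.767. No fold is given, since both groups were below detection, and the result limits only what these 2 probes can show.

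**Figure D3:**
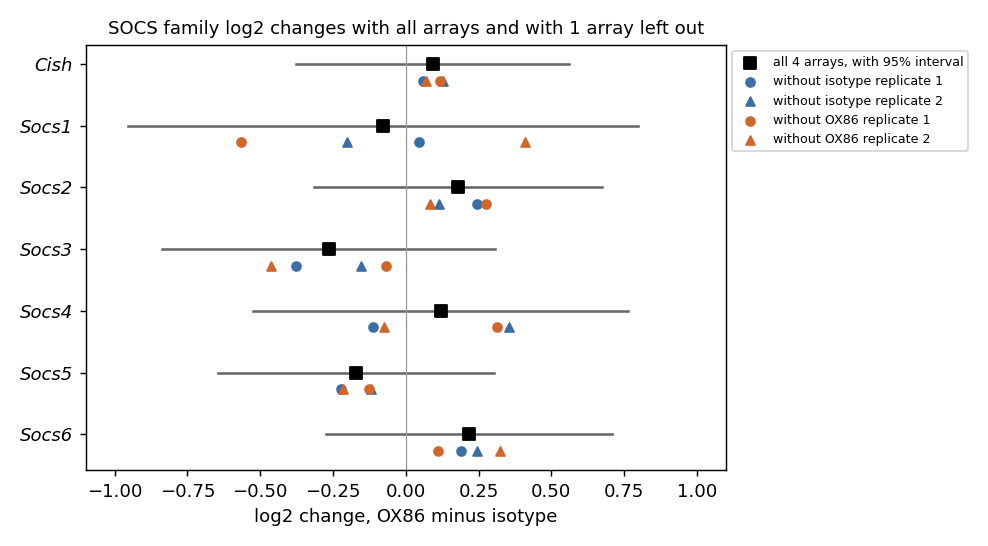
Log2 change (horizontal axis, OX86 minus isotype) of each tested SOCS family probe: black squares with lines give all 4 arrays and the 95% interval, and coloured symbols below give the change with 1 array left out. Every interval holds 0, and the symbols for Socs1 and Socs4 fall on both sides of 0.

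**Figure D4:**
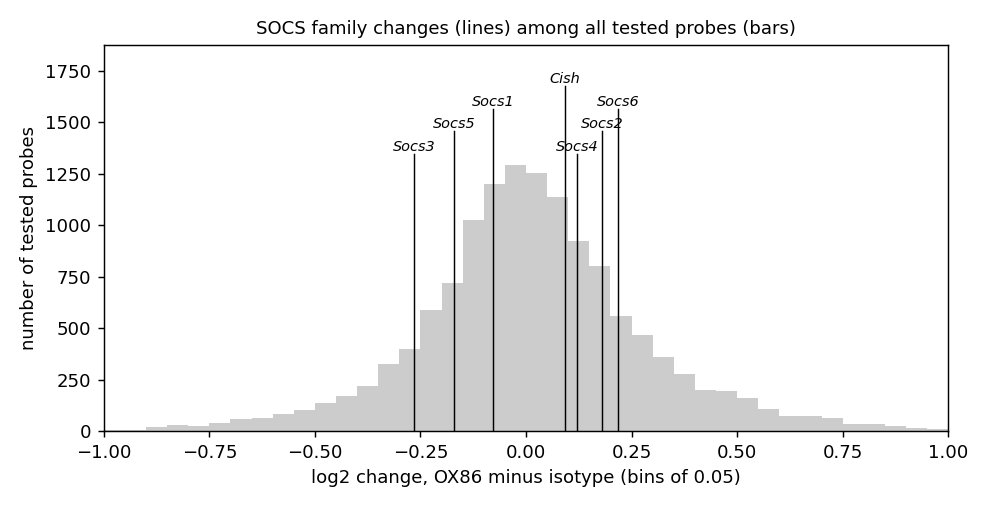
Histogram of the log2 changes of all 13338 tested probes (bars, bins of 0.05; the axis is drawn from -1 to 1 and 46 probes had changes of 1 or more in size), with the 7 SOCS family probes as labelled lines. The family spans -0.26 to 0.22, within the bulk of the distribution.

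Genes around the SOCS family were examined in 7 lists, each gene through its brightest tested probe. Among these genes, 0 passed by the same adjustment and 0 had an unadjusted p under 0.05 in the limma fit over all tested probes. The unadjusted p depended on the processing. For Il10rb it was 0.030 in limma without background correction and 0.038 with another variance prior, and neither passed after adjustment. A gene could stand in more than 1 list. Medians of the log2 change by list ran from -0.04 to 0.07, around the 0.01 of all tested probes. Scaling the arrays by their medians instead of quantile normalization moved the median of all tested probes to 0.12, and the list medians then ran from 0.09 to 0.21, so the counts above and below 0 in these lists depend on that choice and are given under both. The SOCS family itself kept 4 above and 3 below, while its median moved from 0.09 to 0.23 under median scaling. The genes named next had the smallest unadjusted p in their lists, and each had an adjusted p of 0.9999.

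Upstream of the family, 16 of 22 cytokine receptor genes represented were tested, 8 with a log2 change above 0 and 8 below (12 and 4 under median scaling). Il10rb, a chain of the interleukin-10 receptor, read 9.67 and 9.18 with isotype and 9.83 and 9.88 with OX86. Its log2 change was 0.43 (95% interval -0.15 to 1.02), 0.19 without isotype 2, the low array, and 0.68 without isotype 1. Ifnar2, a chain of the type I interferon receptor, had 0.31 (-0.24 to 0.86) at its brightest probe, 0.11 without isotype 2 and 0.51 without isotype 1. The changes at the dimmer Ifnar2 probes were 0.22 and -0.28. Of the JAK kinases and STAT factors, 9 of 10 were tested, 4 above 0 and 5 below (7 and 2 under median scaling). Stat4 had -0.18 (-0.66 to 0.30) at its brightest probe, -0.095 without isotype 1, and -0.12 at its dimmer probe. Jak2 had -0.16 (-0.64 to 0.33) at its brightest probe, -0.072 without isotype 2 and -0.24 without isotype 1. The change at its dimmer probe was 0.0068.

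Of the listed ubiquitin ligase partners of SOCS box proteins, all 8 represented were detected on each array. They were Eloc, Elob, Cul5, Cul2, Rbx1, Nedd8, Ube2f and Arih2. Rnf7, also listed, was not represented, so the ligase was covered only in part. Changes were above 0 for 5 and below for 3 (8 and 0 under median scaling). Eloc, which encodes elongin C, read 7.56 and 6.93 with isotype and 7.65 and 7.90 with OX86. The log2 change of 0.53 (95% interval -0.15 to 1.21) was 0.21 without isotype 2 and 0.84 without isotype 1. Arih2, a ligase that works with cullin 5, had -0.08 (-0.57 to 0.41), -0.15 without isotype 2, -0.0058 without isotype 1, and 0.046 under median scaling. Of the other SOCS box proteins, 13 of 26 were tested and 12 were not detected on any array. Their changes were above 0 for 3 and below for 10 (10 and 3 under median scaling), with -0.32 (-0.85 to 0.21) for Spsb2, an adaptor of inducible nitric oxide synthase. Spsb2 had -0.15 without isotype 2 and -0.50 without isotype 1. Wsb1 had -0.11 (-0.62 to 0.40), 0.024 under median scaling, 0.034 without isotype 1 and -0.25 without isotype 2.

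Inhibitors of JAK and STAT signalling outside the family, 10 of 12 tested, numbered 6 above 0 and 4 below (7 and 3 under median scaling). For the phosphatase gene Ptpn1 the log2 change came to 0.26 (95% interval -0.22 to 0.74). For the STAT3 inhibitor Pias3 it came to -0.25 (-0.72 to 0.23) at its brightest probe and -0.18 at its dimmer probe. Of the targets of interleukin-2 and STAT5, 12 of 14 were tested, 9 above 0 and 3 below (10 and 2 under median scaling), with a median of 0.07. The survival gene Bcl2l1 had 0.61 (-0.26 to 1.48) at its brightest probe, 0.13 without OX86 1 and 1.09 without OX86 2. The changes at the dimmer Bcl2l1 probes were 0.52 and 0.014. Cdk6, a cell cycle kinase, had 0.49 (-0.04 to 1.02), with isotype 2 below detection, and 0.32 without that array. Of the cytokine genes, 6 of 15 were tested and 7 were not detected on any array, with 3 above 0 and 3 below (4 and 2 under median scaling). Osm had -0.20 (-0.70 to 0.31), -0.062 without isotype 2 and -0.33 without isotype 1. Il15 had 0.16 (-0.58 to 0.89), -0.23 without isotype 1 and 0.54 without isotype 2.

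**Figure D5:**
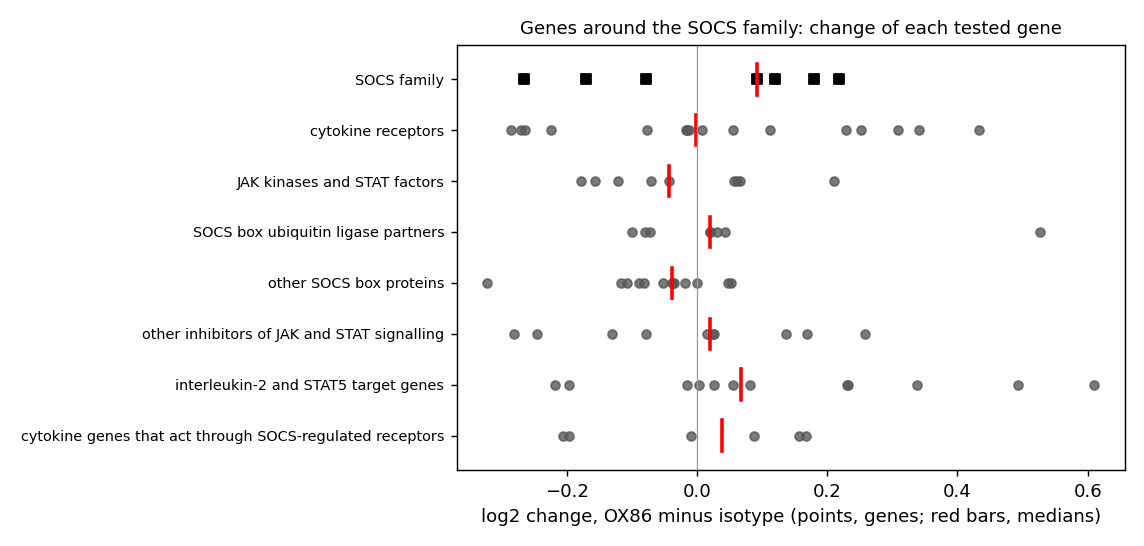
Log2 change (horizontal axis, OX86 minus isotype) of each tested SOCS family probe (squares) and of each tested gene in the 7 surrounding lists (points), with red bars at the medians. With quantile normalization, shown here, each list spreads to both sides of 0, and list medians lie between -0.04 and 0.07.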

How the data were processed

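Biotinylated complementary RNA was made from total RNA for Illumina bead arrays, per the labels' protocols. The authors deposited 2 values per probe and array, a linear signal intensity and a p-value of detection. The submitters' processing notes name BeadStudio; its version and parameters are not given in these sources. On each array the lowest deposited intensity was at least 194.3, so background had not been subtracted. A second deposited table of linear intensities matched a quantile normalization of the first within 1% for at least 99.98% of values and served as an alternative. Its medians were 314.9 (isotype 1), 314.4 (isotype 2), 314.7 (OX86 1) and 314.8 (OX86 2), and its values were neither log transformed, centred nor ratios.

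Signals were processed here with the neqc function (limma 3.58.1, R 4.3.3; control statistics taken from detection p-values, offset 16, quantile normalization, log2). Probes with a detection p under 0.05 on at least 2 arrays were tested with lmFit and eBayes (two-sided, no covariate, Benjamini-Hochberg adjustment over 13338 probes, threshold 0.05). The fit had 2 residual and 3.68 prior degrees of freedom. The number of arrays limits the precision. The code was tested on simulated data. Platform symbols were matched to RefSeq by Entrez number for 23962 of 23978 annotated probes.

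All SOCS family probes were reported, led by the brightest tested probe of a gene. Of each pathway list, up to 2 genes with the smallest unadjusted p were named, and up to 3 genes with a pattern nearest to that of the member with the widest range. Members, lists and motifs were chosen with earlier results of these data known. Probe sequences were not used here.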

Additional observations from a re-analysis of the deposited data

How the results depend on the processing

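The count of SOCS family probes that passed, and of all probes that passed, was 0 under each of 15 alternatives, in limma with Benjamini-Hochberg adjustment. They changed the background correction, normalization, offset, filter, detection threshold, handling of several probes, variance prior or array weights, used the authors' processed table, added a replicate block, or left out an array. At an unadjusted p under 0.05 they gave 0 SOCS family probes, and 102 (median scaling) to 1540 (without isotype 1) of all probes, against 444. The smallest adjusted p of any probe was 0.327, without isotype 1. Of 311 recomputed log2 changes of the 21 tested members and named pathway genes, 303 kept their sign. The filters, detection threshold, variance prior, array weights and replicate block could not alter a change here. Averaging probes could not alter it for genes with a single tested probe. Many of the 303 thus kept their sign by construction, and the count overstates how far signs were tested. The range over leaving out each array was -0.57 to 0.41 for Socs1, -0.11 to 0.35 for Socs4, -0.25 to 0.034 for Wsb1 and -0.23 to 0.54 for Il15. Median scaling moved the median change of all tested probes by 0.11, to 0.12, and turned Arih2 to 0.046 and Wsb1 to 0.024. Relative to that median these were -0.072 and -0.094, and Cish was 0.12, Socs1 -0.24, Socs2 0.20, Socs3 -0.24, Socs4 0.15, Socs5 -0.15 and Socs6 0.22. Without background correction all 21 changes were smaller in size, 10 of them by over 1.5 times: Socs1 (-0.019), Socs4 (0.043), Socs6 (0.10), Ifnar2 (0.16), Eloc (0.21), Spsb2 (-0.10), Pias3 (-0.16), Cdk6 (0.11), Bcl2l1 (0.22) and Il15 (0.033). Socs1 and Cdk6 could not be fitted under the stricter filters, which left them out. With the replicate block 522 probes had an unadjusted p under 0.05 and 0 passed, and by construction each change kept its value (0.09 for Cish). The correlation of deviations of same-numbered arrays was 0.066, and the labels do not say that a number marks a shared animal or culture.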
